A study of Homo sapiens with 56 samples.

Results

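Homologous recombination and the Fanconi anaemia pathway were examined as a group of 33 genes listed by symbol, among 16485 genes in one deposited count table and 16454 in the other. All 33 were found in both tables and all 33 passed the filter on low counts in each of the 7 lines, so every member was tested everywhere. By role they comprised 6 genes of end recognition and resection, 3 checkpoint kinases, 5 genes of the BRCA complexes, 5 strand exchange paralogues (RAD51B, RAD51C, RAD51D, XRCC2 and XRCC3), 3 strand exchange accessory factors, 9 genes of the Fanconi core complex with its ubiquitin-conjugating enzyme, and the 2 genes of the FANCD2-FANCI complex. Their levels were compared between untreated lines, and between 2-methylisocitrate and control within each line.

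The cells were 7 established human colorectal cancer lines that the labels call epithelial and wild-type in genotype, each grown with 10 mM 2-methylisocitrate (2-MiCit, an intermediate of the methylcitrate cycle by which bacteria and fungi break down propionate) or with its vehicle, water. HCT116, DLD1, LoVo and SW948 form one table of 32 libraries, and HT29, SKCO1 and SW1417 a second table of 24 libraries, with 4 libraries in every group. The labels name no chemotherapy drug and do not give the length of treatment, and the growth protocol names the 4 lines of the first table. They do not say whether the 4 libraries of a group came from separate cultures, and a p-value here speaks of spread among libraries alone, which may be technical. Each line is a single established line, and nothing here extends beyond it.

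Homologous recombination repairs double-strand breaks from an intact sister copy. MRE11, RAD50 and NBN bind the break, RBBP8, EXO1 and BLM help resect it, and BRCA1, PALB2 and BRCA2 prepare the exposed strand for exchange with the sister, aided by the paralogues RAD51B to RAD51D, XRCC2 and XRCC3 and by the motor proteins RAD54L and RAD54B. In the Fanconi pathway a core complex, recruited by FANCM and working through the ligase FANCL with UBE2T, attaches ubiquitin to FANCD2 and FANCI at crosslinked DNA. Most of these genes are transcribed more in dividing cells, under the E2F and DREAM regulators of the cell cycle. HCT116, DLD1 and LoVo are known as mismatch repair-deficient lines, and cells of that kind often carry mutations in short repeats within repair genes, MRE11 among them.

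Each library of the first table held between 13837856 and 19447718 counts, and each of the second between 29072881 and 45432695, and the 33 genes together held 1315 to 1873 CPM (counts divided by library size and rescaled) in the first and 1044 to 1718 CPM in the second. The lowest count of any member in any library was 42. The common biological coefficient of variation was widest for DLD1 (0.183) and SW948 (0.159), then HCT116 (0.122), LoVo (0.110), HT29 (0.0936), SKCO1 (0.0741) and SW1417 (0.0692). Marker levels were averaged over all libraries of a line, 2-MiCit and control together. The epithelial genes EPCAM, KRT8, KRT18, KRT19 and CDH1 were detected in every line. KRT20 and CDX1 were at 0 CPM in HCT116, and VIL1 and CDH17 averaged 0.174 and 0.123 CPM there. CDX1 was also at 0 CPM in DLD1 and at 0.479, 0.603 and 1.35 CPM in LoVo, HT29 and SKCO1, against 162 CPM in SW948 and 81.0 CPM in SW1417. KRT20 was at 1.71 CPM in LoVo, and CDH17 and CDX2 were at 1.99 and 2.61 CPM in HT29. Of 15 listed markers of blood, stromal and endothelial cells, those measured stayed under 5 CPM apart from COL1A1, COL3A1 and the lysozyme gene LYZ. COL1A1 was at 17.4 CPM in HCT116 and COL3A1 at 11.1 CPM in LoVo. LYZ was at 1045 CPM in SW948, 1762 CPM in HT29, 56.1 CPM in SKCO1 and 14.2 CPM in SW1417. DLD1 control library 1 stood apart by transcript length, with log2 CPM falling by 0.28 per doubling of length relative to the mean of the line, and SW948 2-MiCit library 2 did so with a fall by 0.23. Leaving out either library left 0 members called in its line.

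Promoter windows from RefSeq (GRCh38.p14, 250 bases before to 50 after the annotated start) were matched by symbol for 30 of the 33 genes, and NBN, RAD54B and FANCI had none. They were searched on both strands for 4 words of the E2F site, TTTCCCGC, TTTCGCGC, TTTGCCGC and TTTGGCGC. These words were in 5 of the 30 member windows, 16.7%, against 3.31% of 35116 windows of the same length. The 5 were EXO1, FANCD2, XRCC2, FANCC and FANCA. Of the 11 matched genes that fell in HCT116 with 2-MiCit, 3 held a word, against 2 of the other 19. The windows are printed from 150 bases before to 50 after the start for 3 genes with a word close to the start, and for RAD54L, which had the largest fall with 2-MiCit and holds none of the 4 words. They lie at chr1:241848054-241848253 and chr3:10026287-10026486 on the plus strand, chr7:152676092-152676291 on the minus strand and chr1:46247538-46247737 on the plus strand, with the E2F word in capitals. The reverse complement GCGGGAAA is the form read in FANCD2 and XRCC2.
EXO1: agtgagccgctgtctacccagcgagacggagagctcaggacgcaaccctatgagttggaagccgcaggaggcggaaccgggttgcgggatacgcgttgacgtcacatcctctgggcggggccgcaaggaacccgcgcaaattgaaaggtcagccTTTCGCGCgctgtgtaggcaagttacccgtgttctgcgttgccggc
FANCD2: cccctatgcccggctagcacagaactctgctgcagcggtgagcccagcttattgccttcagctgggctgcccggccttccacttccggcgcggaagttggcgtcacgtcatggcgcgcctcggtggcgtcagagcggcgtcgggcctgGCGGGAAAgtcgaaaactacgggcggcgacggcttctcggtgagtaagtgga
XRCC2: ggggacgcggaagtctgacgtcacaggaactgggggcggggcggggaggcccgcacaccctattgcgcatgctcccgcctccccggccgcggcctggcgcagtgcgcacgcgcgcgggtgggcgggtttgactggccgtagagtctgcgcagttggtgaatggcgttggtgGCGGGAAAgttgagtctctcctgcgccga
RAD54L: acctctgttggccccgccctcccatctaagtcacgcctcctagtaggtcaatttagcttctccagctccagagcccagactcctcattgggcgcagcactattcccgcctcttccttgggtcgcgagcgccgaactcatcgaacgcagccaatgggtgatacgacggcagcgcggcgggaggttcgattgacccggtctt
Counting the start as base 1, the E2F word began at base 5 in EXO1 and at base 22 in XRCC2, and in FANCD2 it began 2 bases before the start. CCAAT, a word bound by NF-Y, was in 13 of 30 member windows, 43.3%, against 34.6% of all windows, and the RAD54L window held it at 2 positions. The GC box GGGCGG was in 23 of 30, 76.7%, against 45.0% of all windows, and TTTGAA, a word of the cell cycle homology region, was in 4 of 30, 13.3%, against 15.2%. Each member entered with a single window. The windows used for comparison were not reduced to a single window per gene or to protein-coding genes, so the sets compared are unlike. A match describes letters in these windows, and binding was not measured.

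The treatment comparison asked which of these genes changed with 2-MiCit in each line. In HCT116, with libraries unpaired, 13 of the 33 fell and none rose, and no gene of the BRCA complexes passed. With the replicate number as a block, NBN, BRCA1 and BRIP1 were called higher there. RAD54L was lower by 40.2%, RAD54B by 28.9%, EXO1 by 26.5%, FANCE by 25.4% and FANCG by 24.1%. In SKCO1 8 genes fell, the smallest change being −7.68% and the largest −12.8%, in SW1417 5 fell and 1 rose, in HT29 1 fell, and in DLD1, LoVo and SW948 none passed. Calls are Benjamini-Hochberg adjusted p-values below 0.05 over all genes tested in a line, from edgeR's quasi-likelihood test, and fold changes are log2 of 2-MiCit over control. The 13 that fell in HCT116, 39.4% of the members, stand beside 18% of all 13834 tested genes that were called lower and 19% called higher. The median log2 fold change of the 33 was −0.08 in HCT116, against 0.03 over all genes tested. In bulk RNA, fewer cells of a kind and less RNA per cell cannot be told apart.

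**Figure D1:**
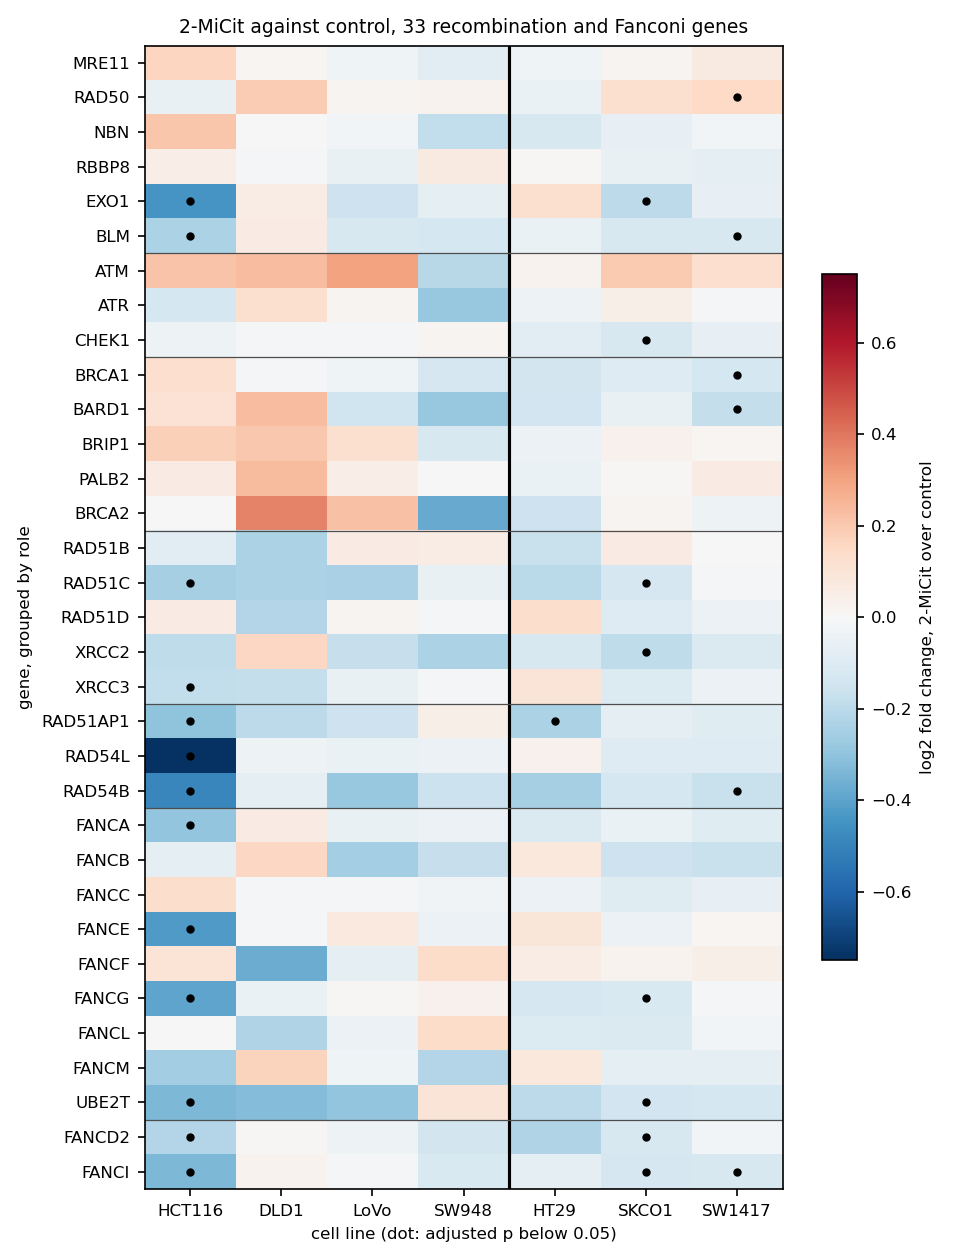
Log2 fold change of the 33 genes (rows, grouped by role) with 2-MiCit over control in each cell line (columns), with a dot where the adjusted p is below 0.05 and a vertical line between the 2 count tables. HCT116 holds 13 of the dots, and its deepest cell is RAD54L at −0.74.

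The strand exchange accessory factors, which help the broken strand pair with its partner, were lower in HCT116 in 3 of 3 cases, and RAD54L and RAD54B had the 2 largest changes of the 33. RAD54L, the motor protein that drives strand exchange (chromosome 1, 46247688 to 46278473, GRCh38), stood at 26.1, 23.3, 26.6 and 25.4 CPM in 2-MiCit libraries, against 44.9, 42.9, 39.9 and 39.7 CPM in controls. The groups do not overlap, and the highest 2-MiCit library lies well under the lowest control. The means were 25.3 ± 1.42 and 41.8 ± 2.49 CPM (SD, n = 4 each), a log2 fold change of −0.74 ± 0.07 (SE) with an edgeR adjusted p of 4.8e-05. Its paralogue RAD54B (chromosome 8, 94371960 to 94475109) stood at 27.0, 28.5, 28.5 and 28.9 CPM with 2-MiCit, against 38.0, 40.1, 38.4 and 39.9 CPM in controls, again apart (log2 −0.49 ± 0.05 SE, edgeR adjusted p = 0.00012). RAD51AP1, which binds joint DNA molecules, averaged 34.7 ± 2.46 CPM with 2-MiCit and 42.4 ± 3.42 CPM in controls (SD, n = 4 each). Its groups overlap by 1 pair of libraries, at 37.9 CPM with 2-MiCit and 37.7 CPM in a control, and its edgeR adjusted p was 0.0119.

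**Figure D2:**
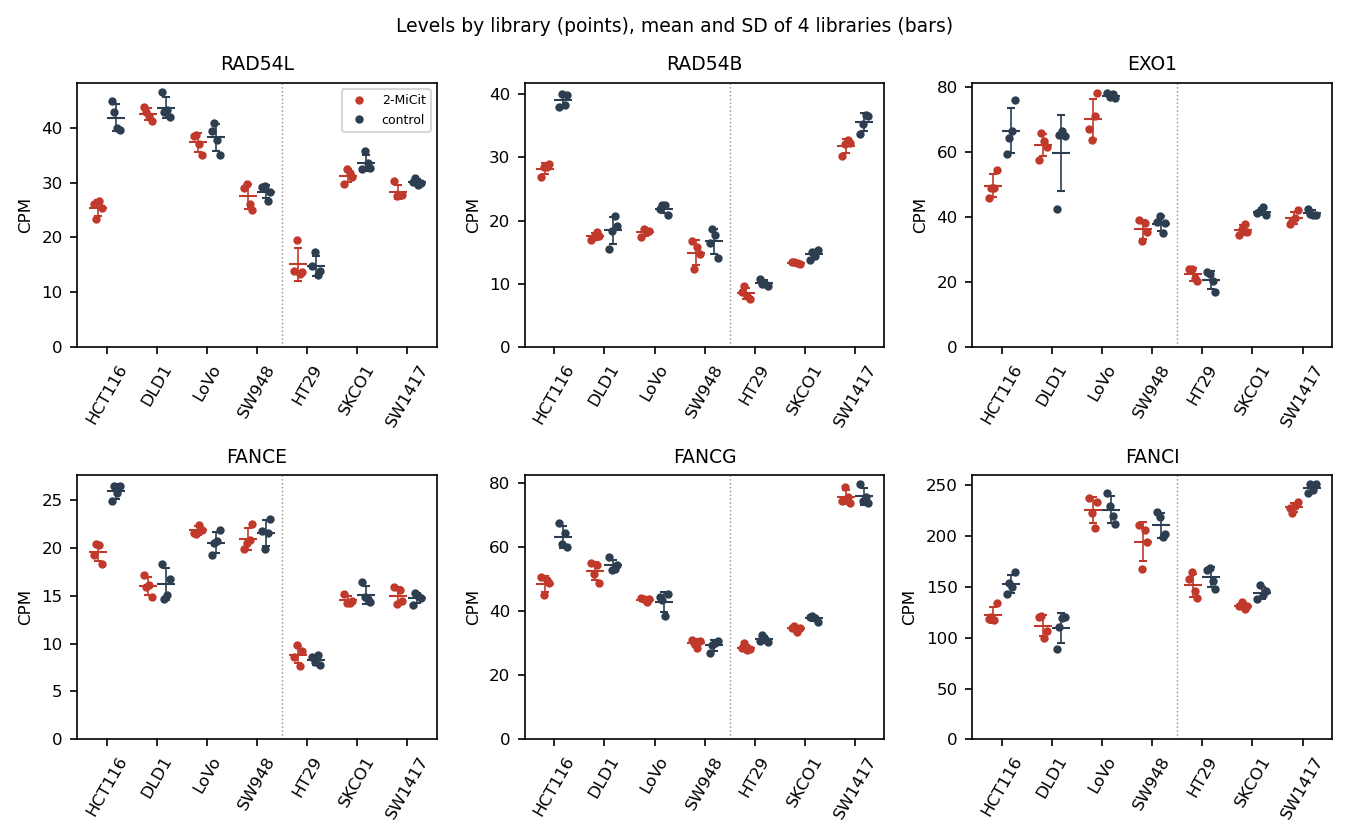
CPM of 6 genes in every library, with the 4 libraries of 2-MiCit left of the 4 controls in each line and bars for mean and SD. In HCT116 all 6 genes have their 2-MiCit points under their control points, while in DLD1 and SW948 the points of both groups overlap for each of the 6.

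Among the Fanconi genes of HCT116, 4 of the 9 core and conjugation genes fell, and both genes of the substrate pair did. FANCE, the core subunit that contacts FANCD2 (chromosome 6, 35452356 to 35467103), stood at 19.3, 20.3, 20.3 and 18.3 CPM with 2-MiCit, against 24.9, 26.4, 25.7 and 26.4 CPM in controls (edgeR adjusted p = 0.000586). FANCG, a scaffold of the same complex (chromosome 9, 35073835 to 35080016), stood at 50.6, 45.0, 49.6 and 48.8 CPM with 2-MiCit, against 67.3, 60.8, 64.2 and 60 CPM in controls (edgeR adjusted p = 0.000908). In both genes every 2-MiCit library was below every control. FANCI averaged 123 ± 7.77 CPM with 2-MiCit and 153 ± 9.16 CPM in controls (SD, n = 4 each), a log2 fold change of −0.34 ± 0.06 (SE). FANCA, UBE2T and FANCD2 were lower by 18.6%, 20.7% and 14.0%, with edgeR adjusted p-values of 0.00468, 0.00831 and 0.0143 and no overlap of the groups. FANCC had its 4 2-MiCit libraries above its 4 controls, at 34 ± 1.09 and 30.6 ± 1.14 CPM (SD, n = 4 each), but its edgeR adjusted p was 0.101. FANCB, FANCF, FANCL and FANCM did not pass either, with log2 fold changes of −0.07, 0.10, −0.00 and −0.26.

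In resection, EXO1, the exonuclease that extends the cut strand (chromosome 1, 241847967 to 241895148), stood at 45.9, 49.1, 49.1 and 54.5 CPM in HCT116 with 2-MiCit, against 59.5, 64.4, 66.5 and 76.0 CPM in controls. The groups are apart, and the log2 fold change was −0.44 ± 0.08 (SE, edgeR adjusted p = 0.00197). The helicase BLM averaged 41.6 ± 4.04 CPM with 2-MiCit and 48.4 ± 3.89 CPM in controls (SD, n = 4 each), with overlapping groups and an edgeR adjusted p of 0.0426. That call was lost when any of 5 single libraries was left out, with adjusted p up to 0.111 without 2-MiCit library 1. BLM, UBE2T and FANCD2 also did not pass in 1 fit over all 4 lines of the table. Of the 3 genes of the break-binding complex none passed: MRE11 differed by 0.16, RAD50 by −0.06 and NBN by 0.21 on the log2 scale.

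RAD51C and XRCC3, which work as a pair among the paralogues, were lower in HCT116. RAD51C stood at 64.3, 59.7, 67.1 and 60 CPM with 2-MiCit, against 74.3, 75.9, 74.9 and 68.7 CPM in controls, with no overlap and an edgeR adjusted p of 0.00823. XRCC3 averaged 42.9 ± 1.21 CPM with 2-MiCit and 48.1 ± 3.01 CPM in controls (SD, n = 4 each, edgeR adjusted p = 0.0405), a call lost when any of 6 single libraries was left out (adjusted p up to 0.101 without 2-MiCit library 2). RAD51B, RAD51D and XRCC2 differed by −0.08, 0.06 and −0.19 and did not pass. None of the BRCA group passed. BRCA1, BARD1, BRIP1, PALB2 and BRCA2, which prepare resected ends for strand exchange, had log2 fold changes of 0.12, 0.11, 0.18, 0.06 and 0.00, with edgeR adjusted p-values from 0.25 to 0.999. Their 95% intervals reach up to 0.35, 0.27, 0.40, 0.26 and 0.40. The kinases ATM, ATR and CHEK1, which signal breaks and stalled forks, differed by 0.21, −0.13 and −0.04 and did not pass. With edgeR, 2 of the 33 were higher at an unadjusted p below 0.05 in HCT116, beside 24.3% of all genes, and DESeq2 called 0 higher. Other fits did call members higher in HCT116. With the replicate number as a block these were NBN, BRCA1 and BRIP1. A single fit over the table, the stricter filter and a fit without control library 4 each gave a higher call too.

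In SKCO1 the called falls were smaller and covered an overlapping set. Of the 33 genes, 8 fell, 24.2%, beside 10.8% of all 14651 tested genes called lower and 8.1% called higher. The 8 were EXO1, CHEK1, RAD51C, XRCC2, FANCG, UBE2T, FANCD2 and FANCI. EXO1 stood at 34.6, 36.2, 38.1 and 35.5 CPM with 2-MiCit, against 41.1, 41.9, 43.1 and 40.6 CPM in controls, so the groups are apart (log2 −0.20 ± 0.04 SE, edgeR adjusted p = 0.00138). XRCC2, the paralogue that binds RAD51D, stood at 40.3, 40.1, 39.2 and 37.7 CPM with 2-MiCit, against 45.6, 44.6, 43.4 and 46.7 CPM in controls, also apart (log2 −0.19 ± 0.04 SE, edgeR adjusted p = 0.00199). CHEK1, the checkpoint kinase downstream of ATR, averaged 92.3 ± 3.04 CPM with 2-MiCit and 101 ± 2.33 CPM in controls (SD, n = 4 each, edgeR adjusted p = 0.00515). FANCD2 and FANCI also fell, with changes of −7.97% and −8.35%. The calls of RAD51C (edgeR adjusted p = 0.0498), FANCG (0.0285) and UBE2T (0.0196) were lost when 7, 5 and 3 of the 8 libraries were left out in turn, and the 8 calls became 5 without control library 2 or without 2-MiCit library 4. In 1 fit over the 3 lines of the table, EXO1, FANCG and FANCD2 kept their calls and the other 5 did not. With all 8 libraries, none of the 33 was called higher by edgeR or DESeq2, and 1 was higher at an unadjusted p below 0.05, beside 14.9% of all genes.

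In all, 6 genes were called lower in both lines: EXO1, RAD51C, FANCG, UBE2T, FANCD2 and FANCI, which is 6 of the 13 in HCT116 and 6 of the 8 in SKCO1. For these 6 the HCT116 log2 fold changes were −0.44, −0.25, −0.40, −0.34, −0.22 and −0.34, beside −0.20, −0.12, −0.12, −0.14, −0.12 and −0.13 in SKCO1. The 2 lines are in different tables and were not tested against each other. Of all genes, 18% were called lower in HCT116 and 10.8% in SKCO1. How many were called lower in both was not counted, so the overlap has no background share.

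In SW1417, 5 of the 33 fell, 15.2%, and 1 rose, 3.03%, beside 4.05% of 14089 tested genes called lower and 2.94% called higher. FANCI stood at 227, 223, 229 and 234 CPM with 2-MiCit, against 243, 251, 245 and 251 CPM in controls, with no overlap and a change of −8.09% (edgeR adjusted p = 0.00624). BLM, BRCA1, its partner BARD1, and RAD54B fell, with changes of −7.89%, −8.89%, −11.7% and −10.8%, and RAD50 rose by 10.7%. The edgeR adjusted p-values of these 5 lay between 0.0263 and 0.0346, and each call was lost when any of at least 5 single libraries was left out. FANCI kept its call in every such fit, and it was the only member called lower with control library 4, 2-MiCit library 2 or 2-MiCit library 3 left out. None of the lower calls of SW1417 remained in a single fit over the 3 lines of the table.

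In HT29, 1 of the 33 was called lower, 3.03%, beside 3.02% of 13887 tested genes called lower and 4.65% called higher. This was RAD51AP1, at 30.1, 27.2, 28.0 and 25.2 CPM with 2-MiCit, against 34.9, 33.7, 32.5 and 29.6 CPM in controls. The highest 2-MiCit library is above the lowest control, and the edgeR adjusted p of 0.0496 rose to as much as 0.150, without control library 1, when libraries were left out. None rose by edgeR or DESeq2, and 9 were lower and 0 higher at an unadjusted p below 0.05, beside 11.1% of all genes lower and 13.1% higher at that p. The count of lower calls in HT29 depended on the setting. No member was called lower with no filter, and more than 1 were with DESeq2, the replicate block or a single fit over the table.

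No member passed in DLD1, LoVo or SW948 by edgeR at its main settings. A single edgeR fit over the table did call members lower in DLD1. Of all genes tested, 0% were called lower and 0.148% higher in DLD1, 0.702% lower and 1.59% higher in LoVo, and 0% in either direction in SW948. At an unadjusted p below 0.05, 4 members were lower and 1 higher in DLD1, beside 8.64% and 9.05% of all genes. In LoVo 6 were lower and 1 higher at that p, beside 11% and 10.3% of all genes, and in SW948 0 were, beside 3.07% lower and 3.59% higher. DESeq2 called 0 in DLD1 and SW948 and 1 in LoVo. That 1 was RAD54B, at 18.2 ± 0.562 CPM with 2-MiCit and 21.9 ± 0.715 CPM in LoVo controls (SD, n = 4 each), where the groups do not overlap and the edgeR adjusted p was 0.0502. With RLE size factors, the stricter filter or the length trend removed, edgeR also called RAD54B lower in LoVo. In DLD1 the smallest edgeR adjusted p was that of FANCF, 0.216, at 9.98 ± 0.571 and 12.9 ± 1.62 CPM. With the spread in DLD1, the 95% interval of the RAD54L log2 fold change ran from −0.17 to 0.09, which leaves out the −0.74 of HCT116.

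Across the 7 lines, 17 of the 33 genes were called lower in at least 1, 9 in at least 2, and FANCI alone in 3, while 15 were called in none. Calls and signs shared across lines were read for the 33 genes only and not for all genes, so they have no background share. RAD51C and RAD54B had a negative log2 fold change in all 7, between −0.25 and −0.01 for RAD51C and between −0.49 and −0.07 for RAD54B. ATM, by contrast, was above zero in 6 of 7, up to 0.30 in LoVo, and passed in no line. It has the longest transcript of the 33, at 13147 bases, and libraries of the first table differed in their trend with transcript length. The ATM values given here were not corrected for that trend. Whether the effect itself differed between lines was tested by the treatment-by-line terms of a fit over each table. In the first table it differed for RAD54L, FANCE, FANCF and FANCG, 4 of 33, beside 18% of 15800 genes. RAD54L changed by −0.74 in HCT116, against −0.04 in DLD1, −0.05 in LoVo and −0.05 in SW948 (edgeR interaction adjusted p = 2.6e-06). FANCE changed by −0.42 in HCT116, against −0.01, 0.07 and −0.04 in those lines (0.00233), and FANCG by −0.40, against −0.05, 0.01 and 0.03 (0.00138). For FANCF, the adaptor of the core complex, the difference (0.003) lay between −0.37 in DLD1 and 0.10 and 0.14 in HCT116 and SW948, none of which passed alone. Among the lines of the second table, 0 of 33 differed, beside 5.49% of 16090 genes, with 6 at an unadjusted p below 0.05, beside 20.6% of genes, a smallest edgeR adjusted p of 0.089 and 2 called by DESeq2.

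Other genes of genome maintenance were read from lists kept beside the 33. Of 54 further recombination and Fanconi genes tested in HCT116, 16 fell, 29.6%, and 6 rose, 11.1%, with a median log2 fold change of −0.13. Of all genes tested there, 18% were called lower and 19% higher. The 4 with the smallest p were CLSPN, the mediator of CHEK1 activation (104 ± 6.57 CPM with 2-MiCit and 140 ± 7.72 CPM in controls, SD, n = 4 each), its fork partner TIPIN (32.6 ± 2.32 and 45.7 ± 2.30 CPM), the Fanconi histone-fold protein CENPX (108 ± 13.1 and 145 ± 6.82 CPM), which fell, and the clamp loader RAD17, which rose (44.9 ± 1.55 and 35.9 ± 1.07 CPM). In SKCO1, 10 of the 54 fell, 18.5%, and 1 rose, 1.85%, beside 10.8% of all genes called lower and 8.1% higher. TIPIN, RFWD3, USP1 and DNA2 had the smallest p. Both end-joining list members that form the Ku heterodimer, XRCC5 and XRCC6, fell in HCT116, with log2 fold changes of −0.43 and −0.26. Of 17 end-joining genes 5 fell there, 29.4%, and 0 rose, beside the 18% and 19% of all genes.

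Genes of the cell cycle moved in the same lines, and their part in the recombination result was not tested. In HCT116, 30 of 35 DNA replication genes and 15 of 24 mitosis genes fell and 0 rose, with medians of −0.33 and −0.28, and 16 of 21 p53 target genes rose, among them CDKN1A, the cyclin-dependent kinase inhibitor (303 ± 22.8 CPM with 2-MiCit and 172 ± 9.83 CPM in controls). In SKCO1, 26 replication and 17 mitosis genes fell, and in SW1417 5 and 13 fell. In HT29 22 of 24 mitosis genes fell and 0 of 35 replication genes did, beside the 1 member called there. In LoVo 1 mitosis and 0 replication genes fell, and in DLD1 and SW948 none did.

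**Figure D3:**
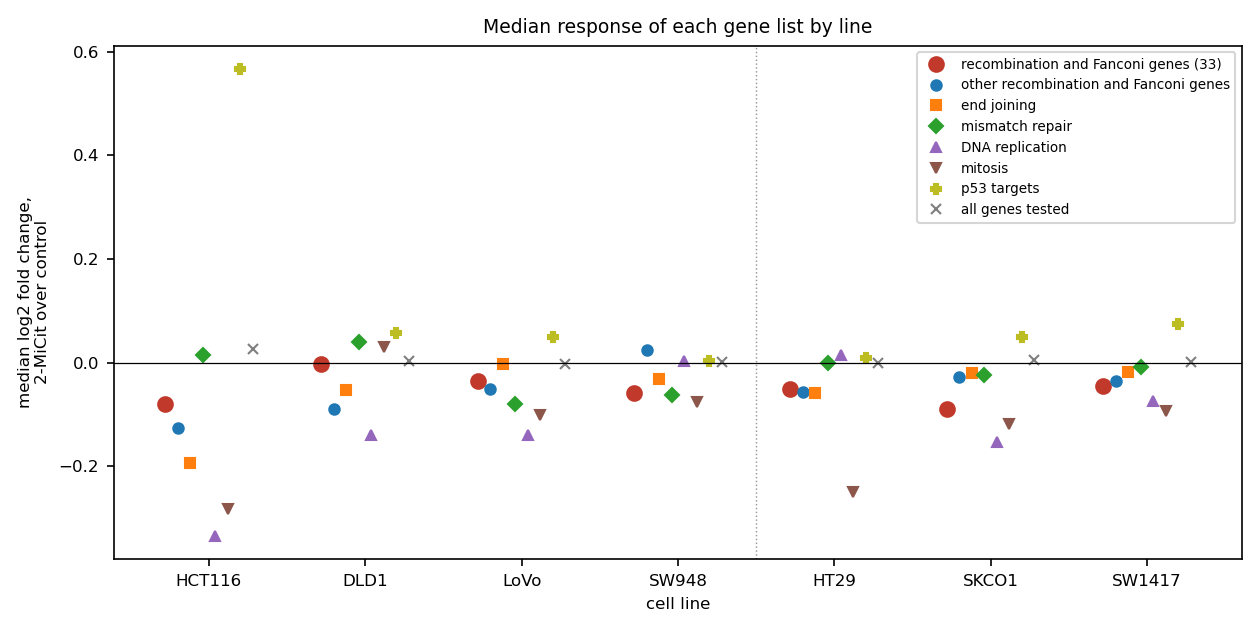
Median log2 fold change of 2-MiCit over control (vertical axis) of the 33 genes, other lists and all genes tested in each line (horizontal axis), with a dotted line between the 2 tables. In HCT116 the median of the 33 is −0.08, between all genes tested at 0.03 and DNA replication at −0.33, and p53 targets are at 0.57.

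Control levels of the 33 genes were compared between lines. Folds of the highest line over the lowest were read for these genes only and not for all genes. In the first table the highest line exceeded the lowest by a median of 1.89-fold over the 33 genes, from 1.22-fold for RAD51B to 5.62-fold for FANCF, and in the second by a median of 2.02-fold, up to 7.62-fold for FANCM. Per kilobase of transcript, a scale that allows genes to be compared, control levels averaged over the 7 lines were highest for UBE2T at 55.0 and FANCI at 37.7 CPM per kb. They were lowest for RAD51B at 1.95, FANCM at 2.53 and FANCB at 2.68 CPM per kb, leaving aside RAD51D, whose transcript length is dominated by 1 long model. These averages span 2 tables that were scaled separately. Below, a gene is called in a line when its control libraries differed from the mean of the other lines of the table over 2-fold with an edgeR adjusted p below 0.05. HCT116 had 2 members below and 2 above, SW948 had 2 and 3, HT29 10 and 1, SKCO1 2 and 2, SW1417 1 and 6, and DLD1 and LoVo none. Of all genes, the same rule called 8.71% to 14.6% below and 11.9% to 16.2% above in lines of the first table. In lines of the second it called 15% to 19% below and 16.5% to 19.1% above.

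**Figure D4:**
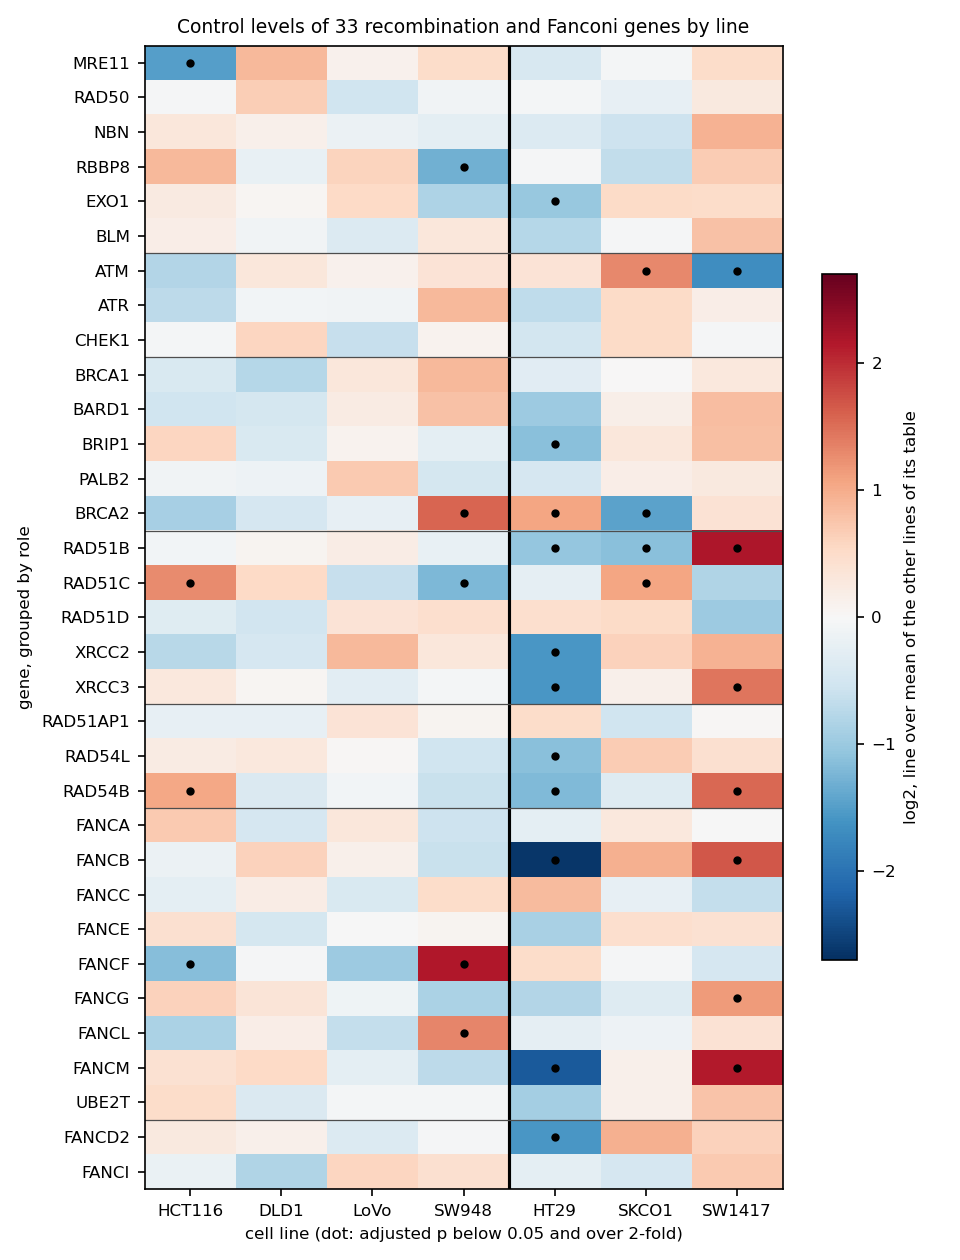
Log2 difference of each of the 33 genes (rows) in control libraries of a line (columns) over the mean of the other lines of its table, with dots where it is over 2-fold with an adjusted p below 0.05. HT29 has 10 of the 33 dotted as lower, and SW1417 has 6 dotted as higher.

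HCT116 was set apart by the nuclease of the break-binding complex. MRE11 (chromosome 11, 94415578 to 94493908, GRCh38) stood at 20.6, 19.3, 18.7 and 19.4 CPM in HCT116 controls, against 54.9, 74.2, 68.0 and 71.0 CPM in DLD1, 50.8, 44.0, 44.5 and 40.3 CPM in LoVo, and 56.8, 53.4, 55.5 and 56.1 CPM in SW948. Every HCT116 library is under every library of the other lines, and the mean difference was −1.50 ± 0.08 (log2, SE), a 2.82-fold lower level with an edgeR adjusted p of 8e-11. Its partners RAD50 and NBN differed by −0.03 and 0.30 (log2) in the same contrast. FANCF was also lower, at 7.21 ± 0.382 CPM in HCT116 and 20.4 CPM on average in the other lines, but its difference from LoVo, at 7.89 ± 0.515 CPM, did not pass (edgeR adjusted p = 0.212). RAD51C, at 73.5 ± 3.23 CPM, and RAD54B, at 39.1 ± 1.06 CPM, were 2.44-fold and 2.07-fold higher in HCT116. RAD54B was thus highest in the line where it fell most with 2-MiCit, and its treated level of 28.2 CPM in HCT116 is still above the 21.9 CPM of LoVo controls. The 2 members below and 2 above, of 33, stand beside 12.4% of 15193 genes below and 15.1% above in HCT116.

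**Figure D5:**
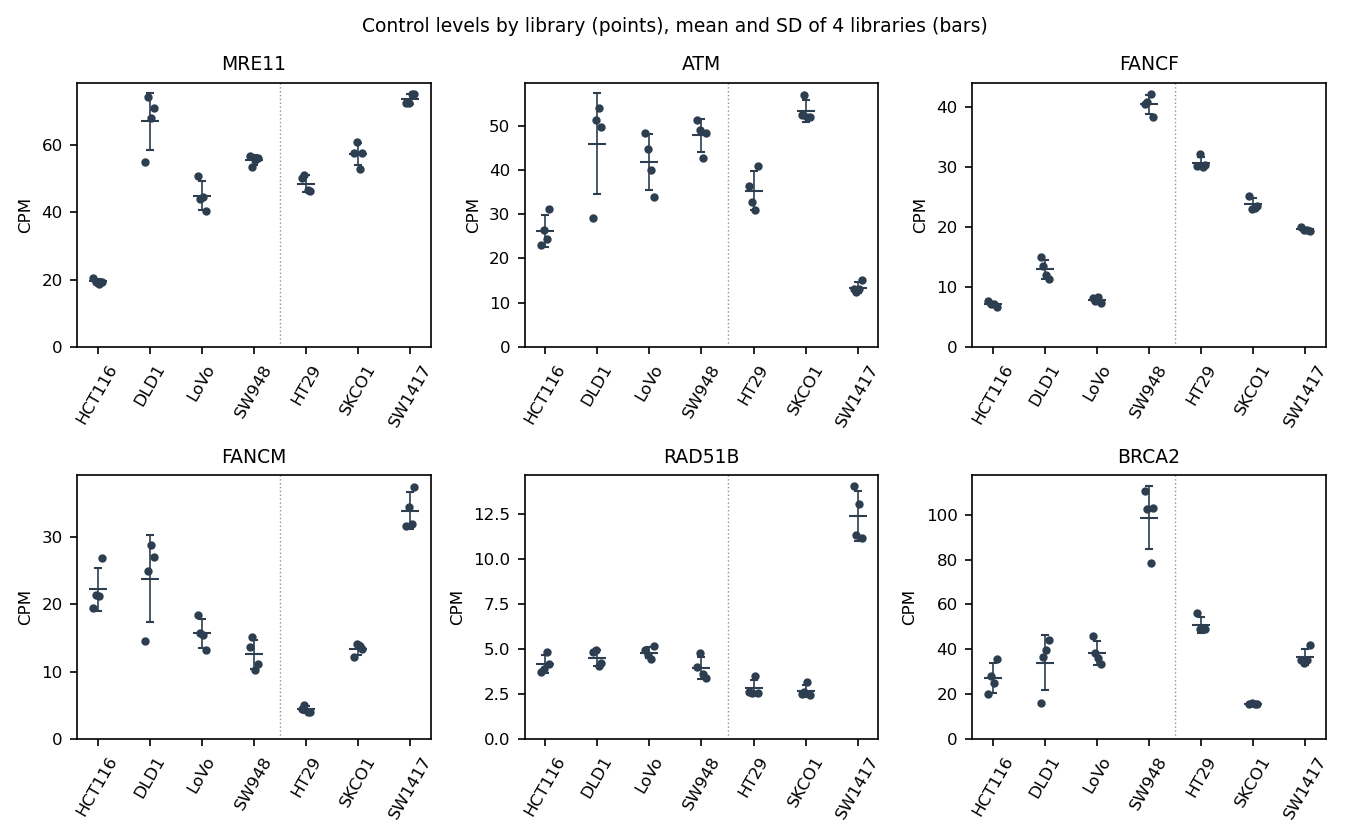
CPM of 6 genes in each of the 4 control libraries of every line (horizontal axis), with mean and SD as bars and a dotted line between the tables. MRE11 in HCT116, ATM in SW1417 and FANCM in HT29 hold the lowest points of their panels, and RAD51B in SW1417 and FANCF and BRCA2 in SW948 hold the highest; the tables were scaled separately.

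SW948 had high FANCF, FANCL and BRCA2, and low RBBP8 and RAD51C. FANCF (chromosome 11, 22622890 to 22625841) stood at 40.5, 40.9, 42.3 and 38.4 CPM in SW948 controls, against 7.21 ± 0.382 CPM in HCT116, 12.9 ± 1.62 CPM in DLD1 and 7.89 ± 0.515 CPM in LoVo (SD, n = 4 each). Every SW948 library is above every other, a 4.46-fold higher level than the mean of the other lines (edgeR adjusted p = 4e-14). BRCA2, which acts on resected ends, stood at 111, 102, 78.4 and 103 CPM in SW948, against 27.2 ± 6.56 CPM in HCT116, 34.2 ± 12.4 CPM in DLD1 and 38.5 ± 5.42 CPM in LoVo, and FANCL, the ligase subunit, was 2.50-fold higher. RBBP8, the MRE11 cofactor, was 2.45-fold lower at 42.8 ± 1.11 CPM, and RAD51C 2.32-fold lower at 20.1 ± 1.24 CPM. These counts stand beside 14.6% of 15193 genes below and 16.2% above in SW948.

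In DLD1 and LoVo no member passed 2-fold by edgeR or DESeq2. Over 2-fold, edgeR called 10.7% of 15193 genes below and 11.9% above in DLD1, and 8.71% below and 14.4% above in LoVo. At an unadjusted p below 0.05 and any fold, 13 members were below and 10 above in DLD1, beside 30.7% and 36.3% of all genes. In LoVo 9 were below and 10 above by that rule, beside 31.5% and 36.7% of all genes. Log2 differences ran from −0.82 to 0.88 in DLD1 and from −0.98 (FANCF) to 0.88 (XRCC2) in LoVo. FANCF in LoVo passed 2-fold when control library 3 was left out. BRCA2 in DLD1 spread from 16.2 CPM in the length-shifted control library 1 to 44.2 CPM in library 4, so its level there is poorly fixed.

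In HT29 controls, 10 of the 33 genes were more than 2-fold below the mean of SKCO1 and SW1417 at an adjusted p below 0.05, 30.3%, beside 19% of 15572 genes below and 16.5% above, and the median log2 difference was −0.49, against −0.02 over all genes. In strand exchange these were RAD51B, XRCC2, XRCC3, RAD54L and RAD54B, in resection EXO1, among BRCA partners the helicase BRIP1, and in the Fanconi pathway FANCB, FANCM and FANCD2. RAD51B was below that mean only through SW1417, at 12.4 CPM. It stood at 2.83 CPM in HT29 and 2.69 CPM in SKCO1, a difference that did not pass (edgeR adjusted p = 0.756). FANCM, the translocase that recruits the core complex (chromosome 14, 45135940 to 45200890), stood at 4.44, 5.10, 4.12 and 4.11 CPM in HT29, against 12.1, 14.1, 13.8 and 13.4 CPM in SKCO1 and 31.6, 34.5, 32.0 and 37.5 CPM in SW1417. The 3 lines do not overlap at any library, and the HT29 level was 4.85-fold lower than the mean of the others (edgeR adjusted p = 3.8e-14). FANCB, an X-linked core subunit, stood at 2.33, 1.84, 1.59 and 1.82 CPM in HT29, against 9.82 ± 0.569 CPM in SKCO1 and 13.6 ± 1.00 CPM in SW1417 (SD, n = 4 each), a 6.17-fold lower level. FANCD2 stood at 24.6, 26.4, 23.5 and 23.3 CPM in HT29, against 77.7 ± 1.44 CPM in SKCO1 and 66.3 ± 0.989 CPM in SW1417. BRCA2 alone was called higher in HT29, at 51.0 ± 3.48 CPM. EXO1 (2.03-fold lower) fell inside 2-fold when control library 4 was left out. Over the same contrast DNA replication genes had a median of −0.98, with 17 of 35 called below, while mitosis genes had a median of −0.02 with 0 called, and their part in the result was not tested.

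SW1417 had low ATM and high RAD51B, and SKCO1 had high ATM and low BRCA2. ATM, the kinase that answers double-strand breaks (chromosome 11, 108222484 to 108369102), stood at 13.1, 12.5, 13.0 and 15.1 CPM in SW1417, against 36.3, 32.8, 30.9 and 40.9 CPM in HT29 and 52.4, 57.0, 52.0 and 51.9 CPM in SKCO1. All 3 lines are apart, with SW1417 3.20-fold lower (edgeR adjusted p = 1.9e-11) and SKCO1 2.47-fold higher than the mean of its others. In SKCO1, BRCA2 stood at 15.6, 16.0, 15.7 and 15.6 CPM, against 51.0 ± 3.48 CPM in HT29 and 36.7 ± 3.54 CPM in SW1417, 2.73-fold lower, and RAD51C was 2.09-fold higher. RAD51B stood at 14.1, 11.3, 13.0 and 11.1 CPM in SW1417, against 2.83 ± 0.449 CPM in HT29 and 2.69 ± 0.333 CPM in SKCO1, between which the edgeR adjusted p was 0.756. SW1417 was also above the other lines for FANCM, FANCB, RAD54B, XRCC3 and FANCG, by 4.42-, 3.17-, 2.94-, 2.72- and 2.22-fold. The 6 members above in SW1417 are 18.2% of the 33, beside 17% of 15572 genes below and 19.1% above, and in SKCO1 15% of genes were below and 19% above.

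Mismatch repair genes were also read in these backgrounds. In control libraries MSH3 stood at 4.36 ± 0.552 CPM in HCT116 and between 32.3 and 41.9 CPM in the other lines of the table. MSH6 stood at 21.3 ± 2.69 CPM in DLD1 and between 109 and 186 CPM in the others. In HT29, MSH6 at 26.0 ± 0.794 CPM and MLH3 at 11.5 ± 0.482 CPM were 4.73-fold and 4.06-fold below the mean of SKCO1 and SW1417. The low MRE11 of HCT116 was found in the line with low MSH3. DLD1, with low MSH6, had MRE11 at 67.0 ± 8.44 CPM, and LoVo had it at 44.9 ± 4.37 CPM. A link between MRE11 and the mismatch repair genes was not tested. With 2-MiCit, MSH6 fell in HCT116, with a log2 fold change of −0.43.

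Several members share genomic sequence with other measured genes, and the sources used here do not say whether counting used strand. On the opposite strand these are ANKRD49 at MRE11, DECR1 at NBN, NPAT and C11orf65 at ATM, KLC1 at XRCC3 and LRRC41 at RAD54L. ZNF276 at FANCA, GAS2 at FANCF, VRK2 at FANCL and POLG at FANCI also lie opposite, as does the pseudogene AC135721.1 at BRCA1. On the same strand AC116366.3 overlaps RAD50, STT3A overlaps CHEK1 and FSBP overlaps RAD54B. MRE11, RBBP8, RAD51AP1 and FANCD2 each have a pseudogene copy by name, which neither count table holds. The values of these members are uncertain to the extent that reads were shared.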

How the data were processed

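Messenger RNA was measured by RNA sequencing in 7 colorectal cancer lines. Per the labels' protocols, RNA was purified on GenElute columns and libraries were made with Illumina Stranded mRNA Prep. The submitters' processing notes name bcl2fastq 2.20.0, Trimmomatic 0.39, Salmon 1.5.0, DESeq2 and the build GRCh38.p13, and neither the summing of transcripts to genes nor any use of strand is stated there. The values used are the whole-number gene counts the authors deposited in 2 tables, and the deposited normalized tables were not used. Groups come from the labels. The members, the other gene lists and the tests were chosen with earlier results of these data known.

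In each line, genes were filtered with filterByExpr and scaled by TMM, and 2-MiCit was compared with control by edgeR 4.0.16's robust quasi-likelihood F test (R 4.3.3, limma 3.58.1 loaded with it), two-sided, with Benjamini-Hochberg adjusted p-values under 0.05 over all genes of the line. Treatment-by-line terms were tested in a fit over each table, and control levels as a line against the mean of the other lines of its table, past 2-fold. The 2 tables were not tested against each other. CPM are scaled by TMM over a table. The rule for naming took all 33 members in every line, at most 4 called genes from each other list per line by smallest p, and mismatch repair genes for control levels, some of which are not reported here. Symbols and coordinates are from GENCODE 29 (GRCh38), where 1166 and 1197 identifiers had no match, holding 3.09 to 3.92% and 3.09 to 3.67% of counts. Levels per kb use the longest protein-coding transcript.

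Alternatives were RLE size factors, no filter, a filter of 5 CPM in 4 libraries, 1 fit over the table, the replicate number as a block, removal of a transcript length trend (lowess span 0.5), DESeq2 1.42.0, a 1.5-fold limit for controls, and each library left out. The fits were tested on simulated data. No pair of libraries of a group agreed within sampling noise (chi-square per degree of freedom at least 4.12), so none was merged.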

Additional observations from a re-analysis of the deposited data

Results flagged for a closer look

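In 23 of 462 groups of 4 libraries, 1 library lay far from the others of its group in the level of a member, and chance alone flags about 1 group in 20. In DLD1 control library 1, EXO1 at 42.4 CPM, BLM at 29.7 CPM and FANCC at 35.4 CPM were low and RAD51AP1 at 51.3 CPM was high. In HT29, XRCC2 was low at 14.0 CPM and RAD51B high at 3.5 CPM in control library 3, BRCA2 was high at 56.2 CPM in control library 1, and RAD54L at 19.6 CPM and FANCA at 37.9 CPM were high in 2-MiCit library 2. XRCC3 at 24.0 CPM and FANCA at 39.0 CPM were high in HT29 control library 2. In SKCO1, RBBP8 at 50.3 CPM and FANCM at 13.3 CPM were high in 2-MiCit library 4, FANCA at 45.1 CPM in 2-MiCit library 1, FANCD2 at 74.3 CPM in 2-MiCit library 2, and ATM at 57.0 CPM and BARD1 at 28.4 CPM in control library 2. In SW1417, RAD50 was high at 70.5 CPM in 2-MiCit library 2 and RAD54L at 30.3 CPM in 2-MiCit library 1. UBE2T was high at 47.7 CPM in LoVo 2-MiCit library 3 and at 67.1 CPM in SW948 2-MiCit library 2, CHEK1 at 66.1 CPM in LoVo control library 3, and FANCD2 at 100 CPM in HCT116 control library 4.

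The change with 2-MiCit differed between the 4 lines of the first table for 4 members, by the treatment-by-line test of edgeR. The adjusted p was 2.58e-06 for RAD54L, 0.00233 for FANCE, 0.003 for FANCF and 0.00138 for FANCG.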

How the results depend on the processing

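No value called in either of the fits compared changed sign. Uncalled values did in 167 of 3457 cases with 2-MiCit and 21 of 2075 for controls, 8 and 2 of them without DLD1 control 1. Over all settings 3316 member values with 2-MiCit kept their side of the threshold, 56 gained a call and 85 lost one, and of the control values 2017 kept it, 56 gained and 2 lost one, the 2 being EXO1 in HT29, below 2-fold both without control library 4 and with the length trend removed. With 1 fit over the table, members called lower numbered 2 in DLD1, 8 in HT29, 3 in SKCO1 and 0 in SW1417, and higher 1 in HCT116 and 0 in SW1417. LoVo had 1 lower (RAD54B) with RLE factors, the stricter filter, the length trend removed and DESeq2. HT29 had 0 lower with no filter, 2 with the length trend removed and 3 with DESeq2. HCT116 had 1 higher with the stricter filter, and SW1417 had 0 higher with the length trend removed. Members whose change differed between lines numbered 9 in the first table with the length trend removed, and 2 in the second with DESeq2. For controls past 1.5-fold, HCT116 had 7 members below and 5 above, DLD1 2 and 3, LoVo 4 and 3, SW948 7 and 6, HT29 16 and 2, SW1417 4 and 15, and SKCO1 6 above; with the length trend removed 2 were below in SW1417. Leaving out 1 library gave 11 to 13 lower and 0 to 1 higher in HCT116 (1 without control 4), 0 to 2 lower and 0 to 1 higher in LoVo, 0 to 4 lower in HT29, 5 to 8 lower and 0 to 1 higher in SKCO1, and 1 to 5 lower and 0 to 1 higher in SW1417. For controls it gave 2 to 3 below in HCT116, 0 to 1 in LoVo and 9 to 11 in HT29. Same-numbered libraries were not paired, since correlations of their deviations ran from −0.32 to 0.28, 5 of 28 pairs were over 0.1, 3 of them among the 4 pairs of HCT116, and 11 libraries correlated best with their own number. With the replicate block, lower calls numbered 14 in HCT116, 5 in HT29, 12 in SKCO1 and 6 in SW1417, higher calls 3 in HCT116 (NBN, BRCA1 and BRIP1) and 0 in SW1417, and members differing between lines 4 in the first table and 3 in the second. The cause of these shifts was not tested. Shares of all genes called under the alternative settings and the 1.5-fold limit are not given, so these member counts have no background share. Having 4 libraries a group limits calls of small changes.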
